A study of Drosophila melanogaster with 6 samples.

Results

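The genes described here carry newly made proteins into and through the early secretory pathway of the Drosophila melanogaster embryo. They were chosen by name, as genes of the signal recognition particle, the translocon, signal peptidase, the COPII and COPI coats and a few cargo factors. Of 35 listed genes, 27 had a probe set that the platform annotation assigned to them alone, out of 11981 genes measured in all. RNA from whole embryos was hybridised to Affymetrix Drosophila Genome 2.0 arrays, with 3 wild type and 3 trh null arrays. Trachealess (trh) encodes a bHLH-PAS transcription factor needed to form the trachea, and the series asks which tracheal genes depend on it. All embryos were collected for 8 h, aged 11 h more and passed through a COPAS biosorter. Their stages are given as 11 to 16, although the wild type descriptions name 17 as the last stage. The trh null embryos were picked by the absence of a GFP balancer chromosome, and neither the allele nor the wild type strain was given in the sources used here. The labels do not say whether each array had its own collection of embryos. The p-values therefore cover the scatter among the 6 arrays, and this scatter may be technical.

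Proteins bound for the cell surface, the lumen of a tube or the extracellular matrix begin their journey at the endoplasmic reticulum (ER). The signal recognition particle (SRP) binds the signal sequence on the ribosome and docks on its receptor, the Sec61 channel passes the chain into the ER, and signal peptidase removes the signal. COPII coats form the vesicles that leave the ER, and COPI coats return escaped proteins and membrane from the Golgi. In fly embryos the bZIP factor CrebA is known to raise these genes in strongly secreting tissues such as the salivary gland, and secretion of matrix into the tracheal lumen needs COPII and COPI. No probe set named CrebA alone, so its transcript was not analysed here. The same applied to Sec62, SsRbeta, Sec23, Sar1, beta'COP, Srp54 and SrpRbeta.

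In trh null embryos, Sec24AB and Sec24CD, the COPII subunits that select cargo, and Sec31, a subunit of the outer COPII cage, were higher, and so was Spase25, a subunit of signal peptidase. Sec24AB rose 2.08-fold, Sec24CD 1.55-fold, Sec31 1.41-fold and Spase25 1.39-fold. None of the 27 genes fell by limma's moderated test at an adjusted p under 0.05, and the other 23 did not pass. Over all genes measured, 6.79% rose and 7.31% fell. At an unadjusted p under 0.05, 8 of the 27 were higher and 1 was lower, where 15.1% and 15.3% of all genes were. Differences were small but mostly of 1 sign: 24 of the 27 genes had a higher mean in trh null embryos (88.9%, against 50.1% of all genes). Of 63 related genes of secretion, described further below, 71.4% did. The median log2 difference was 0.23 for the 27, 0.09 for the related genes and 0.00 for all genes, which include genes of every signal level. Without wild type replicate 3 the sign changed for some of the 27, such as TRAM (-0.11) and Spase22-23 (-0.09), and their median was 0.16. In 11 of the 27 all 3 trh null values lay above all 3 wild type values, which held for 18.8% of all genes and 23.8% of the related genes. In 1, Sec13, all 3 lay below, which held for 19.4% and 6.35%. RNA came from whole embryos, so fewer cells of a type and less RNA per cell cannot be told apart.

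The wild type arrays did not read these genes alike, and wild type replicate 2 stood apart. It was the highest of the 3 wild type arrays for 20 of the 27 genes (74.1%, against 50.1% of all genes and 63.5% of the related genes). It was the lowest for 6, namely Sec24AB, Sec24CD, Sec31, Spase25, Sec16 and Tango1. The 4 genes that rose were therefore all among the 6 in which this array was lowest, and none of the 20 in which it was highest passed. Median deviations of the 27 from the gene's mean over all arrays were -0.13, 0.13 and -0.29 on wild type replicates 1, 2 and 3. Over all genes they were -0.02, 0.06 and -0.02. Over the 63 related genes they were -0.10, 0.13 and -0.16, so this pattern was not particular to the 27. On the trh null arrays the median of the 27 was 0.06 to 0.15. By this median wild type replicate 3 read lowest, and wild type replicate 2 lay within the trh null range. Spread was wider in wild type than in trh null embryos for 26 of the 27 genes (96.3%, against 81% of all genes and 93.7% of the related genes). The median SD was 0.28 against 0.04 (0.20 and 0.08 for all genes). Without wild type replicate 2, 15 of the 27 genes passed as higher and Sec13 as lower, where 17.4% and 14.8% of all genes did. The 4 genes named above were among the 15, and the median log2 difference of the 27 became 0.28 (0.03 for all genes). Conversely, all 4 calls were lost without wild type replicate 3 (adjusted p from 0.0722 to 0.0877) and without trh null replicate 1, 2 or 3 (0.1138 to 0.1658). They were also lost with cyclic loess (0.0627 to 0.104).

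**Figure D1:**
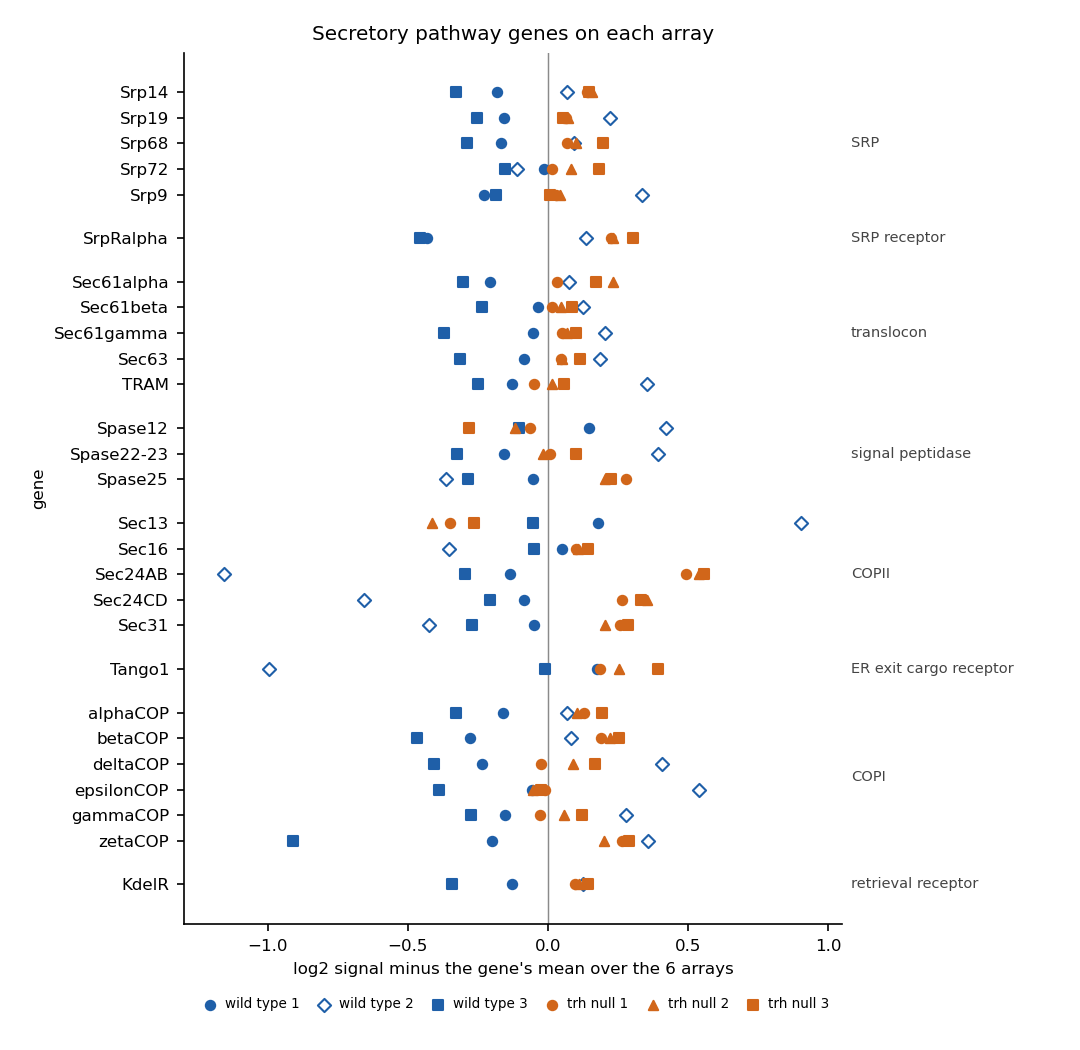
Log2 signal of the 27 genes on each of the 6 arrays, as the deviation from the gene's own mean over the arrays, grouped by role from SRP at the top to the KDEL receptor at the bottom. Wild type arrays are blue and trh null arrays orange; the open diamond, wild type replicate 2, is the highest wild type point for 20 genes and the lowest for 6, while trh null points lie close together.

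The SRP carries the ribosome to the ER. Srp9 and Srp14 form the part that pauses translation, Srp19 assembles the particle, and Srp68 and Srp72 form its other protein pair. Of 6 listed SRP genes, 5 were measured, and none passed in the fit of all arrays (limma, 1 at an unadjusted p under 0.05). Srp14 read 9.97, 10.22 and 9.82 on wild type replicates 1, 2 and 3, and 10.29, 10.31 and 10.30 on the trh null replicates. The trh null arrays all lay above the wild type arrays, with a log2 difference of 0.29 (SE 0.11, limma adjusted p = 0.160). Srp72 read 10.55, 10.46 and 10.41 in wild type and 10.58, 10.65 and 10.75 in trh null embryos. Its groups did not overlap either (0.19, SE 0.08, adjusted p = 0.215), and it was the only gene of the 27 with a wild type replicate 2 value between the other wild type values. For Srp9, Srp19 and Srp68 the groups overlapped through wild type replicate 2, with log2 differences of 0.05, 0.13 and 0.24. Without that array Srp14 (0.40), Srp68 (0.35), Srp19 (0.27) and Srp9 (0.23) passed as higher, with adjusted p from 0.0108 for Srp14 to 0.0470 for Srp9. Srp72 did not (0.18, adjusted p = 0.187).

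SrpRalpha, the GTPase of the SRP receptor on which the particle docks, was measured at 11.00, 11.57 and 10.98 in wild type and 11.66, 11.67 and 11.74 in trh null embryos. Every trh null value exceeded every wild type value, but wild type replicate 2 lay close below them. The log2 difference was 0.50 (95% confidence interval 0.10 to 0.91, adjusted p = 0.114). With wild type replicate 2 left out it was 0.70 (SE 0.07, adjusted p = 0.00119), the smallest adjusted p among the 27 genes in that fit.

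Sec61alpha, Sec61beta and Sec61gamma build the channel, Sec63 is a J-domain membrane protein that recruits the chaperone BiP to it, and TRAM assists chains as they enter the membrane. None of these 5 genes passed (limma, none at an unadjusted p under 0.05 either), and their log2 differences ran from 0.01 for TRAM to 0.29 for Sec61alpha. Sec61alpha, the pore subunit, read 12.99, 13.27 and 12.89 in wild type and 13.23, 13.42 and 13.37 in trh null embryos. Wild type replicate 2 overlapped with the trh null arrays (adjusted p = 0.190), and without it the gene passed (0.40, SE 0.09, adjusted p = 0.0182). TRAM read 12.10, 12.58 and 11.97 against 12.17, 12.24 and 12.28, with an interval of the difference from -0.38 to 0.40. For Sec61beta and Sec61gamma the intervals were -0.16 to 0.35 and -0.21 to 0.50, and for Sec63 -0.18 to 0.46. Trp1, which carries the older name sec62 in the RefSeq gene table, and Srp54k, which carries the older name Srp54, lay outside the naming rule and were looked at after the other values had been seen. Their trh null means were lower, by a log2 difference of -0.32 for Trp1 (SE 0.11, adjusted p = 0.131) and -0.09 for Srp54k (SE 0.11, adjusted p = 0.632).

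Signal peptidase cuts the signal sequence from the chain as it emerges. Of its 3 listed subunits, 1 passed. Spase25 read 12.04, 11.73 and 11.81 in wild type and 12.38, 12.30 and 12.32 in trh null embryos. The groups were separate, and Spase25 rose by a log2 difference of 0.47 (SE 0.10, limma adjusted p = 0.0319; 0.41 without wild type replicate 2, adjusted p = 0.0195). Without wild type replicate 3 (adjusted p = 0.0820) or any 1 trh null array (0.1138 to 0.1288) that call was lost. Spase12 read 12.28, 12.55 and 12.03 in wild type and 12.07, 12.01 and 11.85 in trh null embryos. Its log2 difference was -0.31 (SE 0.15, adjusted p = 0.239), and the groups overlapped. Spase22-23 had a log2 difference of 0.06 (SE 0.19, adjusted p = 0.881).

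The COPII coat buds vesicles from ER exit sites, where Sec16 is the scaffold, Sec24 proteins bind cargo in the inner layer, and Sec13 and Sec31 form the outer cage. Sec24AB read 9.04, 8.02 and 8.88 in wild type and 9.67, 9.72 and 9.74 in trh null embryos. All trh null values were higher and lay close together, while wild type replicate 2 was far below its group. Sec24AB rose by 1.06 (SE 0.26, limma adjusted p = 0.0485), and the difference was 0.75 without wild type replicate 2 (SE 0.08, adjusted p = 0.00141). Sec24CD read 10.97, 10.40 and 10.85 against 11.31, 11.40 and 11.38. It rose by 0.63 (SE 0.15, adjusted p = 0.0475), or 0.46 without wild type replicate 2 (adjusted p = 0.00665). Sec31 read 11.26, 10.89 and 11.04 against 11.57, 11.52 and 11.60, and rose by 0.50 (SE 0.11, adjusted p = 0.0359). Its difference without wild type replicate 2 was 0.41 (adjusted p = 0.0181). Leaving out wild type replicate 3 or a trh null array ended the calls of these 3 genes, within the ranges given above.

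Sec13, which pairs with Sec31 in the cage and is also a subunit of the nuclear pore, went the other way. It read 10.56, 11.28 and 10.32 in wild type and 10.03, 9.97 and 10.11 in trh null embryos. All trh null values lay below all wild type values, and the log2 difference was -0.68 (interval -1.26 to -0.11, adjusted p = 0.129). Without wild type replicate 2, the highest of its arrays, Sec13 passed as lower (-0.40, SE 0.10, adjusted p = 0.0249). The log2 signal of Sec31 minus that of Sec13 differed between genotypes by 1.18, and by 0.81 without wild type replicate 2. This pair was singled out after its values were seen, so no test is given. Sec16 read 10.09, 9.69 and 9.99 against 10.14, 10.15 and 10.19. Its groups did not overlap, but the trh null values lay just above wild type replicate 1 (0.23, SE 0.12, adjusted p = 0.261; 0.12 without wild type replicate 2).

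Tango1 is a membrane protein of ER exit sites that loads bulky cargo such as collagen. It read 11.02, 9.85 and 10.84 in wild type and 11.03, 11.10 and 11.24 in trh null embryos. The groups nearly touched without overlapping, and wild type replicate 2 lay far below the other arrays. The log2 difference was 0.56 (SE 0.30, adjusted p = 0.294), and without that array it was 0.20 (SE 0.10, adjusted p = 0.194).

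Coatomer, the COPI coat, recruits retrograde cargo at the Golgi. Its alphaCOP and epsilonCOP subunits belong to the outer layer, and betaCOP, gammaCOP, deltaCOP and zetaCOP to the inner one. None of the 6 measured subunits passed (limma, 2 at an unadjusted p under 0.05), and wild type replicate 2 was the highest wild type array for all 6. The betaCOP gene read 10.93, 11.29 and 10.74 in wild type and 11.40, 11.43 and 11.46 in trh null embryos, with no overlap (0.44, SE 0.14, adjusted p = 0.108). For alphaCOP the values were 11.29, 11.52 and 11.12 against 11.58, 11.55 and 11.64, again without overlap (0.28, SE 0.11, adjusted p = 0.181). The zetaCOP values ran widest, at 9.04, 9.59 and 8.33 in wild type and 9.50, 9.44 and 9.52 in trh null embryos. Its log2 difference of 0.50 had an interval from -0.22 to 1.22. A second probe set, which the annotation assigns jointly to zetaCOP and CG5946, differed by 0.08 (SE 0.18, adjusted p = 0.824). Differences were 0.16 for deltaCOP, 0.10 for gammaCOP and -0.06 for epsilonCOP, and each of these groups overlapped. Once wild type replicate 2 was left out, zetaCOP (0.81), betaCOP (0.59), deltaCOP (0.40) and alphaCOP (0.38) passed as higher, and gammaCOP (0.26, adjusted p = 0.0596) and epsilonCOP (0.19, adjusted p = 0.241) did not. KdelR encodes the receptor with which COPI returns ER residents. It read 12.19, 12.45 and 11.98 against 12.42, 12.43 and 12.47 and differed by 0.23 (SE 0.13, adjusted p = 0.298; 0.35 without wild type replicate 2, adjusted p = 0.0269).

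**Figure D2:**
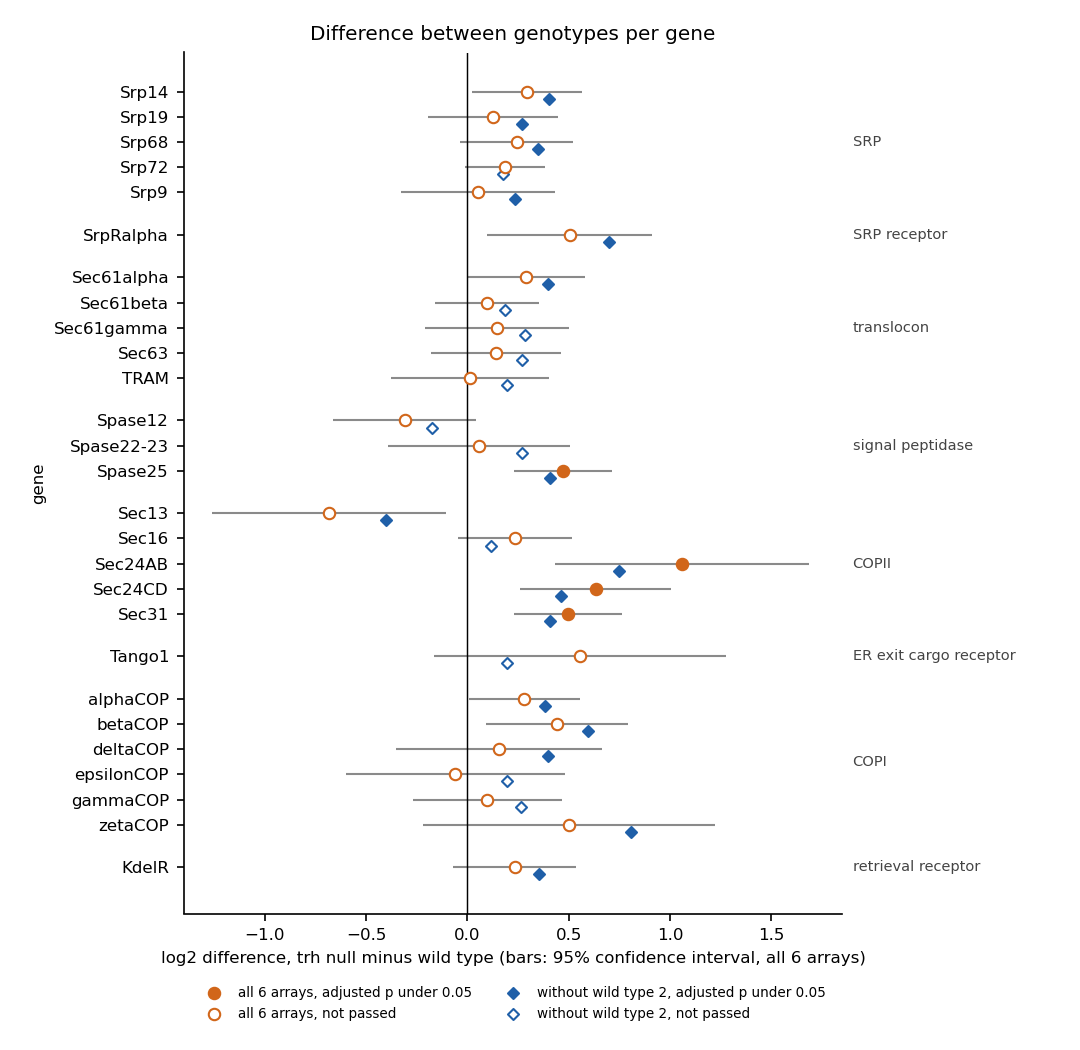
Log2 difference, trh null minus wild type, for each of the 27 genes with all 6 arrays (circles, with 95% confidence intervals) and without wild type replicate 2 (diamonds); filled symbols passed at an adjusted p under 0.05. With all arrays 4 genes passed, all higher, and without wild type replicate 2 there were 15 higher and 1 lower, with Sec24AB, zetaCOP and SrpRalpha the farthest to the right.

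The side on which wild type replicate 2 fell went with the length of the gene. Gene length here is the span of the gene in RefSeq Release 6, introns included, and the transcript or probe position was not used. The 5 longest of the 27 genes, Sec16, Sec24AB, Sec24CD, Tango1 and Sec31 (5186 bases and more), were all lowest on wild type replicate 2, while the next, alphaCOP with 4134 bases, was highest on it. Spase25, with 1317 bases, was the exception among the 6. Across the 27 genes the deviation of this array from the mean of the other wild type arrays had a Pearson correlation of -0.53 with log10 gene length (Spearman -0.45), and -0.37 (Spearman -0.34) across 11892 genes with a length. The genes share the same arrays and are not independent replicates, so no p is given. The log2 difference between genotypes correlated with length at 0.45 among the 27 (Spearman 0.52) and at 0.22 without wild type replicate 2 (Spearman 0.25). The same Pearson correlations were 0.11 and -0.02 across the 11892 genes (Spearman 0.13 and -0.02). Across 63 related genes of secretion they were -0.19 and -0.34, where the Spearman values were weaker, at -0.02 and -0.16.

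**Figure D3:**
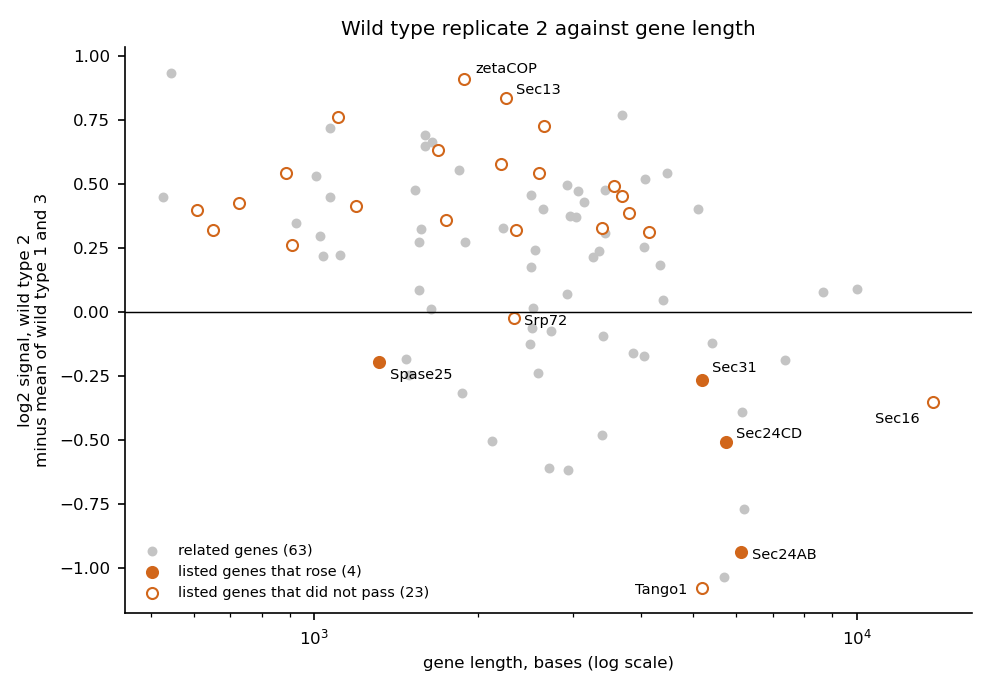
Deviation of wild type replicate 2 from the mean of wild type replicates 1 and 3 (log2, vertical axis) against gene length (bases, log scale) for the 27 listed genes (orange, filled where they rose) and 63 related genes (grey). The 5 longest listed genes all lie below 0, and Spase25 is the one short gene of the 4 that rose.

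Control probe sets at the ends of the actin transcript differed between genotypes too. Their log2 signal at the 3' end exceeded that at the 5' end by 1.46, 1.30 and 1.31 on wild type arrays and by 0.80, 0.74 and 0.75 on trh null arrays. For GAPDH the excess was 1.17, 1.03 and 1.18 against 0.90, 0.93 and 0.69. Wild type arrays thus lay above trh null arrays for both controls, and in each the exact two-sided permutation test gave p = 0.1, the smallest possible with 3 arrays per genotype. The part of RNA quality in the differences of the secretory genes was not tested.

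Markers of several tissues moved with genotype as well, and so did early patterning genes, which were listed for stages before 11. Whether these genes are expressed again later in other tissues was not examined. The counts are to be read against the 6.79% of all genes that were higher and the 7.31% that were lower. Of 9 salivary gland markers, 5 were higher in trh null embryos and none lower, among them fkh, the forkhead factor of the gland (a log2 difference of 0.93), eyg and sens (0.74 each) and rib (0.69). The summed linear signal of the 9 was 9401 to 12846 on wild type and 15849 to 16777 on trh null arrays. By contrast, the gland genes PH4alphaSG1 and PH4alphaSG2, for prolyl 4-hydroxylase subunits, had log2 differences of -0.22 and 0.09 (adjusted p = 0.510 and 0.875). On the same list sage differed by -0.06 (limma adjusted p = 0.864). For sage, PH4alphaSG1 and PH4alphaSG2 alike the genotypes overlapped. Among 13 early patterning genes 6 were higher and none lower, with ftz (1.22), Kr (1.14), hkb (0.64, also on the gland list) and twi (0.63) among them. The summed signal of the 13 was 3687 to 4753 against 5857 to 6169. Of 10 tracheal markers 3 were lower and 1 higher, with sums of 23618 to 30989 against 16921 to 19591. The tracheal FGF receptor gene btl (-1.38), the chitin-binding protein gene Gasp (-1.53) and the chitin synthase gene kkv (-0.44) fell, and the bHLH-PAS gene dysf rose (0.54). Of 8 muscle markers 5 were lower and none higher, including TpnC73F (-2.33), Prm (-1.51), up (-1.14) and Mlc1 (-0.78), with sums of 26078 to 42267 against 16791 to 20455. On the same list sls lay higher on every trh null array (1.53, adjusted p = 0.201). None of 7 neuronal markers passed (limma, 3 higher at an unadjusted p under 0.05), with brp at 0.56 and futsch at 1.15 nearest, and their sums were 3151 to 4732 against 5953 to 6998. Those sums were carried by elav (1.65, adjusted p = 0.0819), and without it they overlapped, at 1584 to 2616 against 2257 to 2594. Fat body and blood cell markers had sums of 16117 to 20128 against 17609 to 19737, which overlapped. Of the 11, Pxn (0.94) and PPO2 (0.61) were higher and none lower. The list was mixed, since 6 of the 11 log2 differences were below 0 and their median was -0.04. With the brightest gene of each list left out, the sums of the genotypes still did not overlap for the gland, patterning, tracheal and muscle lists. The lowest log2 signal of any of these markers was 4.56, for ftz, where the median over all probe sets was 6.16 to 6.22 by array. Among the markers named here, ftz lay below the median of its array in wild type (4.56 to 5.11) and on trh null replicates 2 and 3 (5.89 and 5.99). So did dysf on all arrays (5.14 to 5.94) and btl in trh null embryos (mean 5.60). The same held for futsch in wild type (5.10 to 6.21) and brp on wild type replicate 2 (5.91). How near these values lie to background was not tested. With any 1 array left out, btl, Gasp, ftz, TpnC73F, Prm, up and Pxn stayed past the threshold, while the other markers named here as higher or lower each lost the call in at least 1 such fit (highest adjusted p from 0.0577 for fkh to 0.135 for hkb). Leaving out wild type replicate 2 gave 6 lower tracheal markers, 3 higher neuronal markers, and 7 lower muscle markers with sls higher (adjusted p = 0.0241), against 17.4% higher and 14.8% lower of all genes. Of the 11 fat body and blood cell markers, 2 were then higher and 1 lower. The part of these shifts in tissue or stage in the secretory results was not tested.

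Beyond the listed genes, 63 further genes of secretion were measured out of 87 names considered. Of these 5 rose (7.94%, against 6.79% of all genes), 2 fell (3.17%, against 7.31%) and 56 did not pass, with a median log2 difference of 0.09. When wild type replicate 2 was left out, 21 were higher (33.3%) and 3 lower (4.76%), against 17.4% and 14.8% of all genes. Around the translocon, the oligosaccharyltransferase subunit genes OstDelta and Dad1 rose, and the other 5 of 7 genes of that group did not pass. OstDelta read 11.94, 11.81 and 11.92 in wild type and 12.52, 12.45 and 12.45 in trh null embryos, a rise by 0.59 (SE 0.08, limma adjusted p = 0.00642). Dad1 read 11.33, 11.74 and 11.25 against 12.38, 12.28 and 12.20, a rise by 0.85 (SE 0.14, adjusted p = 0.0151). In both, all trh null values lay well above all wild type values, wild type replicate 2 included. The call for OstDelta held with any 1 array left out, whereas leaving out a trh null array, whichever it was, ended that for Dad1 (adjusted p from 0.0657 to 0.0739). In the group of further peptidase, TRAP and EMC genes none of 7 passed (limma, 2 at an unadjusted p under 0.05). The nearest were twr, the catalytic signal peptidase subunit (0.42, SE 0.12, adjusted p = 0.0797), and Tapdelta, of the translocon-associated protein complex (0.25, SE 0.10, adjusted p = 0.175).

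ER chaperone and disulfide enzyme genes were mixed, with 1 of 11 higher, 1 lower and 9 that did not pass. ERp60, a protein disulfide isomerase, rose by 0.32 (SE 0.07, limma adjusted p = 0.0363). Sil1, the nucleotide exchange factor of the ER chaperone BiP, fell by 0.63 in log2 signal (SE 0.14, adjusted p = 0.0348). Both calls were lost without wild type replicate 3 or any 1 trh null array, and that for ERp60 also without wild type replicate 1 (adjusted p from 0.0617 to 0.155 for ERp60 and from 0.0784 to 0.141 for Sil1). Of 4 ER stress genes, crc, the fly ATF4 gene, fell 2.39-fold and 3 did not pass. It read 12.43, 12.55 and 12.52 in wild type and 11.21, 11.22 and 11.31 in trh null embryos. Its groups stood far apart (a log2 difference of -1.25, SE 0.08, adjusted p = 0.000628), and the call held with every array left out in turn.

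Among SNAREs and tethers between ER and Golgi, 2 of 14 genes rose and 12 did not pass. Ykt6, a SNARE of ER to Golgi and later fusion steps, read 9.02, 9.04 and 8.89 in wild type and 10.09, 10.05 and 10.07 in trh null embryos. It rose 2.12-fold (a log2 difference of 1.09, SE 0.08, limma adjusted p = 0.000961), and its call held with every array left out in turn. Grasp65, a Golgi stacking protein gene, rose by 0.65 (SE 0.12, adjusted p = 0.0200), a call that was lost without wild type replicate 1 or any 1 trh null array (0.0607 to 0.0996). No gene passed among 7 of the p24 and cargo receptor group, 6 of the Arf and Rab group and 7 of the exocyst (limma, 0, 1 and 2 higher and none lower at an unadjusted p under 0.05). Surf4, an ER cargo receptor gene, differed by 0.08 and CHOp24, a p24 gene, by -0.18. Sec71, an Arf exchange factor gene, differed by 0.43 (adjusted p = 0.0895) and ArfGAP1 by -0.12. Of the exocyst, Exo84 differed by 0.27 (adjusted p = 0.0581) and Sec15 by 0.52 (adjusted p = 0.0766).

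**Figure D4:**
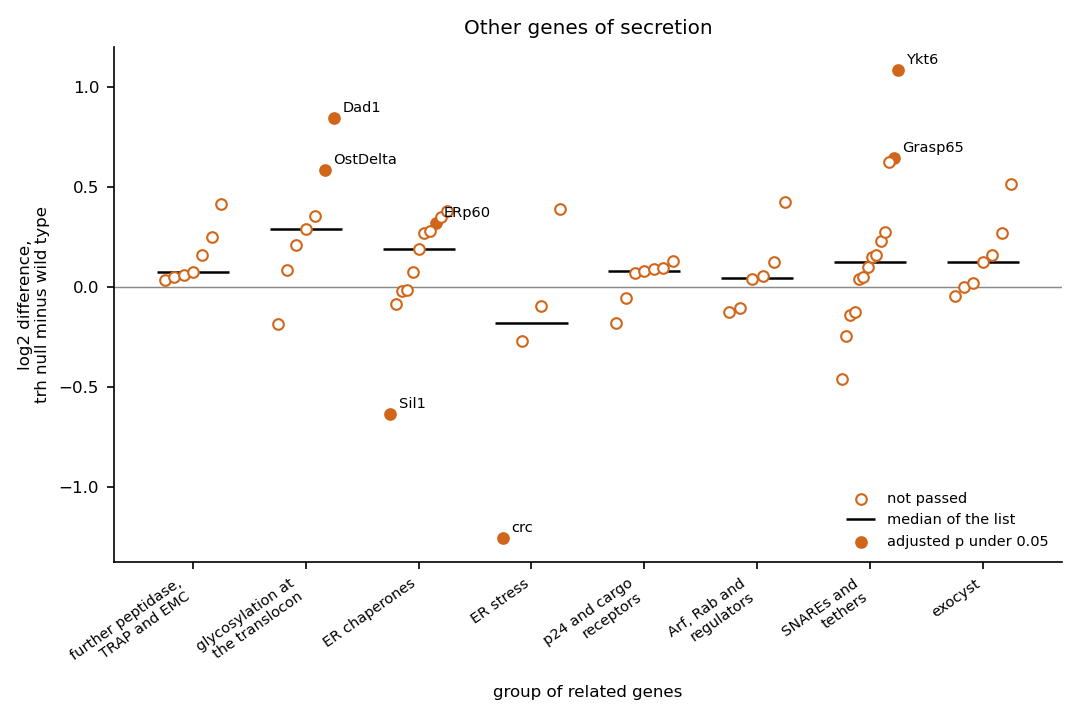
Log2 difference, trh null minus wild type, of 63 further genes of secretion by group, with all 6 arrays; filled points passed at an adjusted p under 0.05 and bars mark group medians. Ykt6, Dad1, Grasp65, OstDelta and ERp60 lie above 0 and crc and Sil1 below, and all other points are open.

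The number of calls among the 27 genes depended on which arrays entered. It was 4 higher with all arrays and without wild type replicate 1, 15 without wild type replicate 2, and 0 without wild type replicate 3 or any 1 trh null array. At an unadjusted p under 0.05 these last 4 fits gave 4 or 5 higher genes each, by limma. Calls over all 18769 probe sets, in either direction, were 2219 with all arrays and 1658, 5001 and 1680 without wild type replicate 1, 2 and 3. They were 845, 736 and 704 without trh null replicate 1, 2 and 3. Every fit with 1 array left out has only 2 arrays of a genotype. The median log2 difference of the 27 stayed above 0 in all 6 of these fits, from 0.16 to 0.28.

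**Figure D5:**
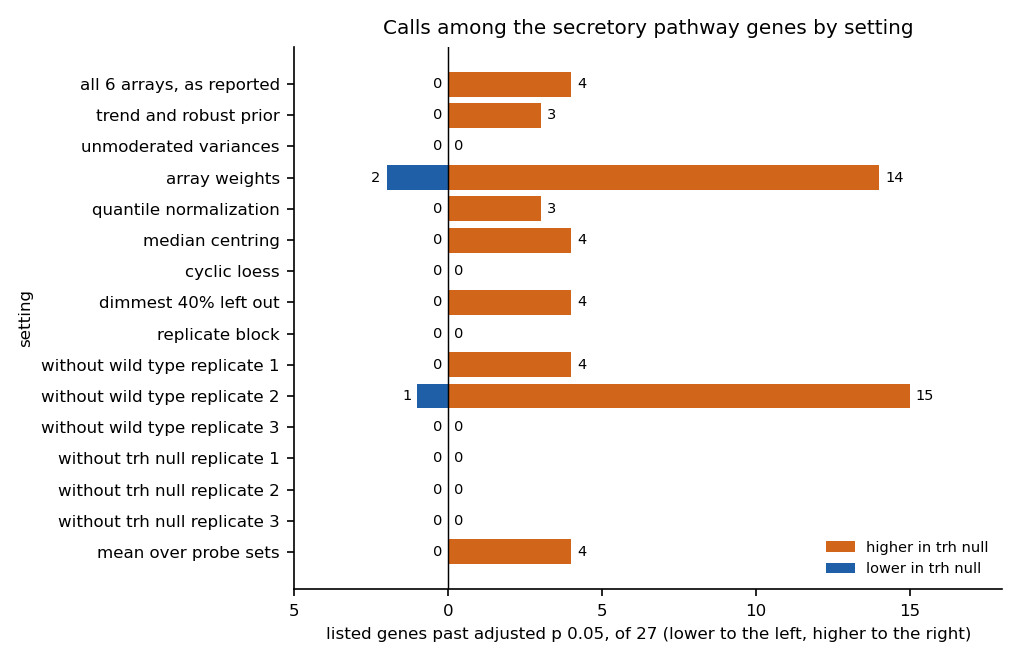
Number of the 27 listed genes past an adjusted p of 0.05 in each setting, higher in trh null to the right and lower to the left. The counts run from 0 to 15 higher, with the largest numbers without wild type replicate 2 (15) and with array weights (14). Calls over all tested probe sets, not drawn here, also differed between settings.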

How the data were processed

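The submitters' processing notes name RMA and Partek, and give no version of either. The deposited values were taken as log2 signal, with base 2 inferred from their range and the named method. RMA as generally run makes the quantiles of the arrays equal, which can hide a change common to every transcript. The table held 18952 probe sets, of which 183 controls were left out of the tests. The platform annotation named 1 gene for 13646 of the other 18769. Each gene was represented by its brightest probe set naming it alone, and every measured listed gene had exactly 1. All 18769 probe sets were fitted with limma 3.58.1 in R 4.3.3 (lmFit, eBayes), genotype as the only term. Benjamini-Hochberg adjustment ran over all of them, with a threshold of 0.05. "Rose", "fell" and "passed" refer to it. On simulated arrays with 200 of 18769 probe sets changed, the fit recovered 0% of log2 changes of 0.5. It recovered 71.5% at a change of 1 and 94% at a change of 2. The simulation changed fewer probe sets than the 2219 called in the data, and gave both genotypes the same SD for each probe set. Its shares are therefore not the power of the fit reported here, in which Sec31 (0.50), Spase25 (0.47) and ERp60 (0.32) passed. With 3 arrays per genotype, failing to pass is still no sign that a gene was unchanged. Levels of different genes were not compared. For arrays, their number limits the precision. The genes and lists were chosen with earlier results of these data known. Every listed gene was named, and of each other list up to 4 genes that passed by smallest adjusted p, or 2 where none did. PH4alphaSG1, PH4alphaSG2, sage, elav, sls, Trp1 and Srp54k were added after their values were seen. Tables and exact tests used pandas 2.3.3 and scipy 1.17.1, and figures matplotlib 3.10.9. Alternatives are given in the closing section.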

Additional observations from a re-analysis of the deposited data

How the results depend on the processing

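The 4 higher calls among the 27 listed genes became 0 with unmoderated variances, cyclic loess, the replicate number as a block or an adjusted p under 0.01, and 14 with array weights, and ran from 0 to 15 with 1 array left out. At an unadjusted p under 0.05 limma gave 9 higher genes with cyclic loess and 7 with the block, and unmoderated variances gave 5. The count of lower calls, 0, became 2 with array weights and ran from 0 to 1 with 1 array left out. With a trend and robust prior or quantile normalization 3 of the 4 genes stayed past the threshold, and all 4 did with median centring, with the dimmest 40% of probe sets left out, and with the mean over probe sets. Over all 18769 probe sets, calls in either direction moved as well. They went from 2219 to 949 with unmoderated variances, 726 with the block and 6003 with array weights, but stood at 2228 with cyclic loess. The related genes had 5 higher and 2 lower calls. These became 19 and 4 with array weights, 1 and 1 with the block, and 2 and 1 at an adjusted p under 0.01, and unmoderated variances gave 1 lower call. With 1 array left out they ran from 2 to 21 higher and from 1 to 3 lower. Same-numbered arrays had correlations of deviations from their genotype means of -0.37, -0.06 and -0.05. With 3 arrays per genotype these values cannot tell whether the replicate numbers pair the arrays. Of 405 gene values under an alternative among the 27 genes, 338 kept their direction and side of the threshold, 30 lost a call, 24 gained one and 13 changed sign. None of the sign changes concerned a gene past the threshold. TRAM was -0.024 with cyclic loess and epsilonCOP 0.051 with array weights. With 1 array left out the log2 difference ran from -0.0024 to 0.28 for Sec61gamma, -0.11 to 0.20 for TRAM, -0.090 to 0.27 for Spase22-23, -0.013 to 0.26 for gammaCOP, -0.0076 to 0.40 for deltaCOP, -0.27 to 0.19 for epsilonCOP, -0.049 to 0.23 for Srp9 and -0.36 to 0.052 for CHOp24. The causes were not tested. With 1 array left out the actin control difference ran from -0.62 to -0.54 and that of GAPDH from -0.33 to -0.21. Precision was limited by the 3 arrays per genotype.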
